A study of Mus musculus with 6 samples.

Results

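The immunity-related GTPases (IRGs) measured here were 7 genes, Irgm1, Irgm2, Igtp, Iigp1, Tgtp1, Tgtp2 and Ifi47, out of 55487 in the count table. They were taken by gene symbol, a rule that uses no measured value. The list itself was chosen with earlier results of these data known. All 7 were found and passed the filter on low counts. The study asked which transcripts accompany the faster growth of colon carcinoma tumors in mice given interferon-γ (IFN-γ). Tumors were grown under the skin of immunocompetent BALB/c mice from implanted CT26.WT cells, a mouse colon carcinoma line from the same strain, with the genotype given as WT in both groups. According to the methods, the mice were males of 4 weeks. The IFN-γ group (3 tumors) was given 100 µl of IFN-γ at 100 ng/ml into the tail vein every 48 h, and the control group (3 tumors) was given PBS. Both groups thus carried the same single tumor line, so the values describe that line and its host cells together. RNA was taken from tumor tissue, in which an increase in the number of cells of a type and an increase in RNA per cell cannot be told apart. The labels give 3 numbered tumors a group without naming the mice, so p-values measure the spread between these tumors.

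IRGs are GTP-binding proteins of mouse cells that IFN-γ induces, and they act in cell-autonomous defense against parasites and bacteria that live inside vacuoles. The regulatory members, Irgm1, Irgm2 and Igtp (also called Irgm3), sit on the cell's own membranes and keep the effector members in an inactive state there. The effector members, among them Iigp1 (Irga6), Tgtp1 and Tgtp2 (Irgb6) and Ifi47 (Irgd), are loaded onto the membrane of the pathogen's vacuole and help to break it, together with the guanylate-binding proteins and with help from the ATG8 conjugation system of autophagy.

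The division between regulatory and effector members rests on 1 residue of the first nucleotide-binding motif, the P-loop, and its codons are shown because the results below are ordered by it. The reading frames of GENCODE M21 (GRCm38) gave the 24 bases of the 8-residue motif, 5′ to 3′ on the gene's strand, with the codon of the seventh residue in capitals.
Irgm1: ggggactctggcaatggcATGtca
Irgm2: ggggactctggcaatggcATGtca
Igtp: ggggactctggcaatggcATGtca
Tgtp1: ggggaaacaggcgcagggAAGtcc
Tgtp2: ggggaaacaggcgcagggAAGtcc
Ifi47: gggcagtctgggactggcAAGtcc
These stretches lie at chr11:48866761-48866784 (minus strand, Irgm1), chr11:58219695-58219718 (plus strand, Irgm2), chr11:58206275-58206298 (plus strand, Igtp), chr11:48987667-48987690 (minus strand, Tgtp1), chr11:49059534-49059557 (minus strand, Tgtp2) and chr11:49095648-49095671 (plus strand, Ifi47), all in coding sequence. The 3 regulatory genes had the same 24 bases with a methionine codon, at residue 89 of Irgm1, residue 89 of Irgm2 and residue 97 of Igtp. The other 4 members, Iigp1 among them, had a lysine codon, and Tgtp1 and Tgtp2 had the same 24 bases as each other.

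Promoter sequences of the members are described next, and their part in the members' levels was not tested. An interferon-stimulated response element (ISRE) and a gamma-activated site (GAS) are short DNA elements through which interferons switch on genes, and IRF1 binds the first. RefSeq windows of 300 bases (250 before and 50 after the annotated start, GRCm38.p6) were matched by symbol for 6 of the 7 members. Both strands were searched for GAAA, any 2 bases and GAAA, called ISRE-like, and for TTC, any 3 bases and GAA, called GAS-like. The second reads the same on both strands. The matched stretches are printed 5′ to 3′ on the gene's strand, with the letters of a match in capitals.
Irgm1: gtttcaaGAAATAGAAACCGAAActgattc
Irgm2: ccatTTCCAGGAActGAAACTGAAAgctg
Igtp: ccatTTCTAGGAActGAAACTGAAAgctg
Tgtp1: ccatTTCCAGGAAtcGAAACTGAAAccta
Tgtp2: ccatTTCCAGGAAtcGAAACCGAAAccta
Gm12185: ccatTTCCAGGAAtaGAAAGTGAAAccta
They lie at chr11:48871428-48871457 (minus strand, Irgm1), chr11:58214898-58214926 (plus strand, Irgm2), chr11:58199507-58199535 (plus strand, Igtp), chr11:48992310-48992338 (minus strand, Tgtp1), chr11:49064269-49064297 (minus strand, Tgtp2) and chr11:48927244-48927272 (minus strand, Gm12185, an IRG gene outside the 7). In Irgm1, 2 overlapping ISRE-like matches ran from 30 to 15 bases before the start, with no GAS-like match in the window. In Irgm2, Igtp, Tgtp1 and Tgtp2 a GAS-like match was followed after 2 bases by an ISRE-like match, and in Igtp the pair ran from 45 to 25 bases before the start. The window of Ifi47 held neither set of letters.

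An ISRE-like match was thus present in 5 of the 6 members with a window, and in 1131 of all 32851 windows (3.44%). A GAS-like match was present in 4 of the 6, and in 2726 of all windows (8.3%). Of the 5 other IRG genes with a window, 3 had an ISRE-like match and 2 had a GAS-like match. The matches were thus not particular to the members. The spacing of the paired matches was noted after the windows had been read. It occurred in 5 of all 32851 windows (0.0152%), those of Irgm2, Igtp, Tgtp1, Tgtp2 and Gm12185. These genes are related copies, so their windows are not independent, and a match of letters is a description and not a binding site.

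**Figure D1:**
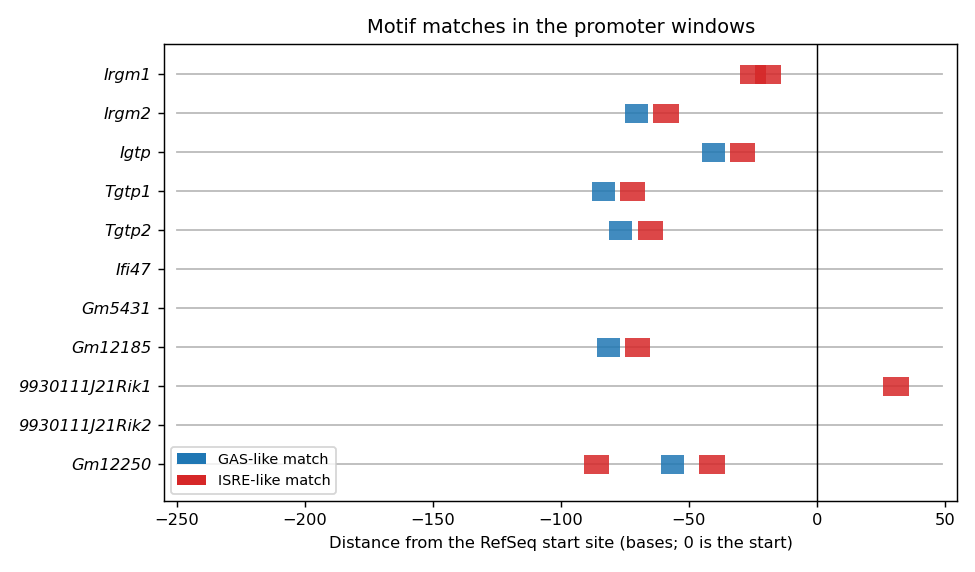
Each row is the RefSeq promoter window of 1 IRG gene, from 250 bases before to 50 bases after its start on the horizontal axis, with GAS-like matches in blue and ISRE-like matches in red. In 4 members and Gm12185 a blue match stands directly before a red one, Irgm1 has 2 overlapping red matches, and Ifi47 has none. Outside the members, Gm12250 has 1 blue and 2 red matches, and 9930111J21Rik1 has 1 red match.

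In GRCm38, 6 members lie on chromosome 11 and 1, Iigp1 (ENSMUSG00000054072), lies on chromosome 18 at 60376027-60392634, plus strand. Irgm1 (ENSMUSG00000046879; 48861968-48871683, minus strand), Tgtp1 (ENSMUSG00000078922; 48985327-48994172, minus), Tgtp2 (ENSMUSG00000078921; 49057194-49064206, minus) and Ifi47 (ENSMUSG00000078920; 49076587-49096974, plus) form with 4 other IRG genes a cluster of 235 kb. Igtp (ENSMUSG00000078853; 58199556-58207591, plus) and Irgm2 (ENSMUSG00000069874; 58199618-58222782, plus) lie 9090 kb further on, beside Gm12250, in a stretch of 35.0 kb. All 7 are annotated as protein-coding, with proteins of 407 to 423 residues. The coding sequences of Tgtp1 and Tgtp2 were the same at 1241 of 1245 bases (99.7%). Of all 100-base windows in their transcripts, 73.1% of those of Tgtp1 and 76.8% of those of Tgtp2 also occurred in another gene, so how the reads were split between this pair is uncertain. Igtp and Irgm2 overlap in 162 exon bases on the same strand, and 5.16% of the 100-base windows of Igtp occurred in Irgm2. For Irgm1 and Iigp1 no 100-base window was shared, and for Ifi47 0.842% were. Ifi47 also overlaps Olfr56 on the same strand and Gm12188 on the other, in 111 and 106 exon bases.

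The libraries held 15759300 to 17559680 counts, so 3 counts, the limit that a count of 0 allows, equalled 0.169 to 0.188 counts per 1000000 (CPM), counting error only. The members were far above it, with 241 to 9210 counts per gene and tumor. CPM was scaled with TMM factors, which correct for composition. Over all 6 tumors, edgeR's quasi-likelihood test called 12 of 15114 genes higher with IFN-γ and 5 lower. When IFN-γ tumor 3 was left out it called 381 higher and 112 lower of 15487. That tumor stood apart in its summed epidermal markers (69.3 CPM against 2.75 to 12.3 in the other 5), led by the keratin Krt14 at 33.2 CPM against 0.169 to 3.88. Over all genes tested, its log2 CPM correlated at 0.9855 and 0.9823 with IFN-γ tumors 1 and 2. With controls 1, 2 and 3 it correlated at 0.9891, 0.9846 and 0.9851. IFN-γ tumors 1 and 2 correlated with each other at 0.9929, the highest of any pair. Of 7 epithelial carcinoma markers 3 were high enough to be tested, Krt18 at 6.41 to 10.4 CPM, Cdh1 at 1.28 to 2.46 CPM and Krt8 at 0.186 to 12.1 CPM. Cdx2 was at 0 in every tumor, and Epcam, Krt19 and Vil1 did not exceed 0.928, 0.4 and 0.286 CPM. The part that epidermal RNA plays in the values below was not tested, and the members' fold changes and calls are given with and without IFN-γ tumor 3. A figure legend of the study counts fewer IFN-γ tumors than the labels do, and for its panel on genes also fewer control tumors. It does not say which, so all 3 labelled tumors of each group were kept.

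Irgm1, the regulator found on Golgi, lysosomal and mitochondrial membranes, stood at 108, 162 and 141 CPM in control tumors 1, 2 and 3, against 288, 293 and 135 CPM in the IFN-γ tumors in the same numbering. IFN-γ tumors 1 and 2 were higher than every other tumor, while IFN-γ tumor 3 lay inside the control range, so the groups overlapped. Irgm2, a Golgi-associated regulator, stood at 73.7, 111 and 97.8 CPM in control tumors against 198, 184 and 88.6 CPM in the IFN-γ tumors. Igtp, the regulator on the endoplasmic reticulum and lipid droplets, stood at 87.1, 141 and 126 CPM in control tumors against 282, 274 and 121 CPM in the IFN-γ tumors. For both genes the first 2 IFN-γ tumors were again the highest, control 1 was the lowest and IFN-γ tumor 3 came next above it.

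Iigp1, the effector that is among the first to reach the parasite's vacuole, had the most reads of the 7, with 159, 284 and 250 CPM in control tumors against 535, 513 and 219 CPM in the IFN-γ tumors. IFN-γ tumor 3 was below controls 2 and 3. Tgtp2, an effector, stood at 75.9, 116 and 93.1 CPM in control tumors against 210, 213 and 96.8 CPM in the IFN-γ tumors. Its near-identical neighbor Tgtp1 stood at 15.1, 30.3 and 27.0 CPM in control tumors against 61.3, 60.9 and 27.1 CPM in the IFN-γ tumors. For this pair IFN-γ tumor 3 lay between controls 3 and 2. Ifi47, an effector, stood at 73.6, 108 and 103 CPM in control tumors against 160, 183 and 89.6 CPM in the IFN-γ tumors, where tumor 3 again fell between controls 1 and 3.

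**Figure D2:**
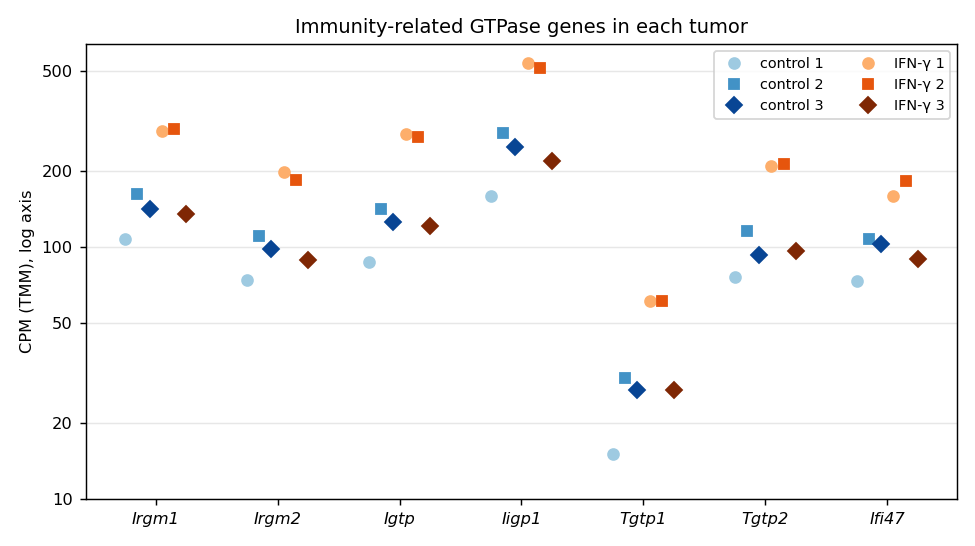
CPM on a log axis is plotted for each of the 7 members, with blue points for the 3 control tumors and orange to brown points for the 3 IFN-γ tumors. For every member IFN-γ tumors 1 and 2 sit above the other 4 tumors, IFN-γ tumor 3 sits among the controls and control 1 is lowest.

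The same order was seen across the family. IFN-γ tumors 1 and 2 were both above the other 4 tumors for 7 of 7 members, against 13.4% of all genes tested. IFN-γ tumor 3 was within the control range for 7 of 7, against 40.9% of genes tested, and control 1 was the lowest tumor for 7 of 7, against 14.5%. No member had all IFN-γ tumors above all controls, a pattern seen in 7.62% of genes tested. Members share their tumors and are not replicates of each other, so these counts describe the 6 tumors.

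Summed over the 7 members, CPM was 593, 953 and 838 in control tumors against 1730, 1720 and 777 in the IFN-γ tumors. As a share of all counts this was 0.0602%, 0.0972% and 0.0835% in control tumors against 0.174%, 0.169% and 0.0756% in the IFN-γ tumors. The median member's log2 ratio to the control mean was 1.16 in IFN-γ tumor 1, 1.18 in IFN-γ tumor 2 and -0.00508 in IFN-γ tumor 3, while the controls themselves ranged from -0.342 to 0.283. The spread within the control group was therefore smaller than the distance of IFN-γ tumors 1 and 2 from it, and larger than that of IFN-γ tumor 3.

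With all 6 tumors, 0 of 7 members passed an adjusted p of 0.05 in edgeR's quasi-likelihood test with Benjamini-Hochberg adjustment over 15114 genes, where 0.112% of genes passed in either direction and 0.0794% as higher. At an unadjusted p below 0.05 there were 7 of 7 members, against 10.2% of genes tested. DESeq2 over the same tumors called 0 of 7 (0.801% of all genes were called higher), as did limma-voom (0.0662%). When IFN-γ tumor 3 was left out, 7 of 7 passed as higher with IFN-γ, against 2.46% of the 15487 genes then tested. Leaving out any other single tumor gave 0 of 7, with 0.0388%, 0.0259% and 0.0454% of genes called higher without control 1, 2 or 3 and 0.026% and 0.0324% without IFN-γ tumor 1 or 2. With no filter on low counts, which tests 26868 genes, 4 of 7 passed on all 6 tumors (Irgm1, Igtp, Tgtp1 and Tgtp2), against 0.558% of genes called higher. A block for the replicate number gave 0 of 7 (0.0331%). Fits added after seeing the data, without IFN-γ tumor 3, called 7 of 7 with DESeq2 (3.98%), 7 of 7 with limma-voom (2.72%) and 6 of 6 with the counts of Tgtp1 and Tgtp2 summed (2.45%). The median log2 fold change of the members was 0.865 with all tumors and 1.14 without IFN-γ tumor 3, beside 0.00152 and -0.0159 over all genes tested.

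Among the regulators, mean CPM for Irgm1 was 137 ± 27.1 with PBS and 239 ± 90.0 with IFN-γ (SD, n = 3 each), a log2 fold change of 0.80 ± 0.279 (SE; edgeR adjusted p = 0.389). Leaving out IFN-γ tumor 3 made it 1.07 ± 0.145 (edgeR adjusted p = 0.0123), or 2.1-fold. Irgm2 had means of 94.2 ± 18.9 and 157 ± 59.4 CPM and a log2 fold change of 0.73 ± 0.28 (edgeR adjusted p = 0.42), and without that tumor 1.01 ± 0.148 (edgeR adjusted p = 0.0161). Igtp had the largest log2 fold change of the 3 regulators, with means of 118 ± 27.9 and 226 ± 90.7 CPM and 0.93 ± 0.308 (edgeR adjusted p = 0.371). Igtp was 2.34-fold higher when IFN-γ tumor 3 was left out, with an edgeR adjusted p of 0.0132.

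Among the effectors, Tgtp1 had the largest log2 fold change of the 7, 1.04 ± 0.339 (SE; edgeR adjusted p = 0.367), with means of 24.1 ± 8.00 and 49.8 ± 19.6 CPM (SD, n = 3 each). It was 2.51-fold higher without IFN-γ tumor 3 (edgeR adjusted p = 0.0243). Tgtp2, with means of 95.2 ± 20.4 and 173 ± 66.3 CPM, had a log2 fold change of 0.87 ± 0.286 (edgeR adjusted p = 0.371) and was 2.21-fold higher without that tumor (edgeR adjusted p = 0.0123). Since the split of reads between this pair is uncertain, their counts were also summed, which gave a log2 fold change of 0.90 (edgeR adjusted p = 0.367), and 1.18 (edgeR adjusted p = 0.0135) without IFN-γ tumor 3. Iigp1, with means of 231 ± 64.6 and 422 ± 176 CPM, had 0.87 ± 0.332 (edgeR adjusted p = 0.42), and 1.17 ± 0.199 (edgeR adjusted p = 0.0226) without it. Ifi47 had the smallest log2 fold change of the 7, 0.61 ± 0.25 (edgeR adjusted p = 0.461), with means of 94.7 ± 18.5 and 144 ± 48.9 CPM. It was 1.8-fold higher without IFN-γ tumor 3 (edgeR adjusted p = 0.0247). The standard errors overlapped between all members in both fits except where Ifi47 stood beside Igtp or Tgtp1 without IFN-γ tumor 3, and differences between members were not tested.

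**Figure D3:**
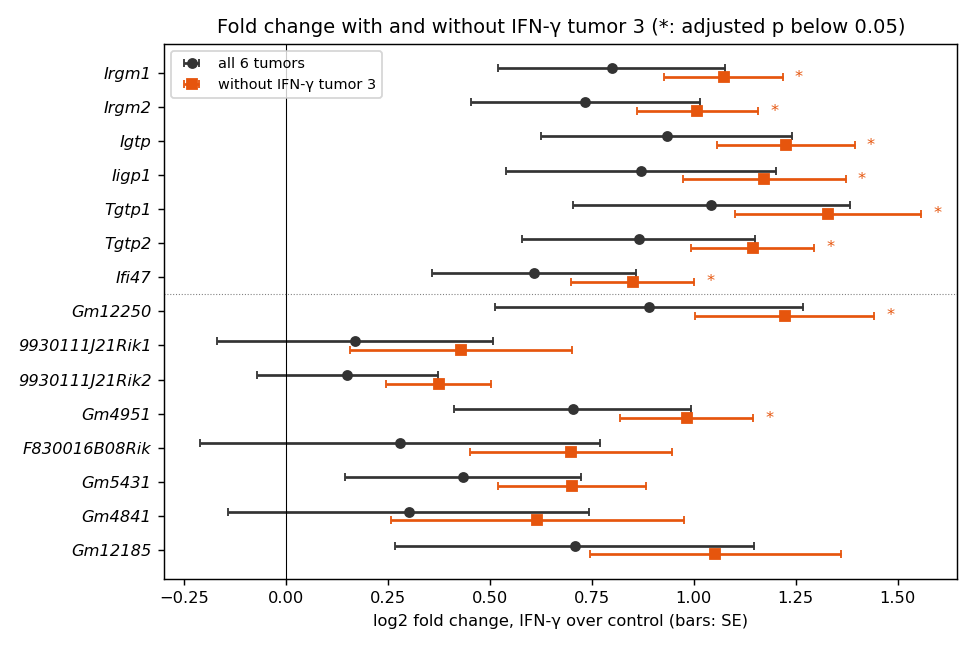
Points show the log2 fold change of IFN-γ over control (horizontal axis, bars are SE) for the 7 members above the dotted line and 8 other IRG genes below it, with all 6 tumors in black and without IFN-γ tumor 3 in orange. Asterisks mark an edgeR adjusted p below 0.05, which all 7 members, Gm12250 and Gm4951 reached without that tumor and none reached with all 6.

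Levels of different genes were compared as CPM per kb of summed exon length. In the controls Igtp stood highest at 58.4 ± 13.8 CPM per kb (SD, n = 3). Iigp1 followed at 39.7 ± 11.1, Ifi47 at 38.3 ± 7.47, Tgtp2 at 32.4 ± 6.93, Irgm2 at 25.5 ± 5.13 and Irgm1 at 23.6 ± 4.67 CPM per kb. Tgtp1 was lowest at 7.52 ± 2.5 CPM per kb, a level that depends on how its reads were separated from those of Tgtp2. Only the steps from Igtp to Iigp1 and from Irgm1 to Tgtp1 were larger than the SD of either neighbor. In the IFN-γ group the SDs were wider, with Igtp at 112 ± 44.9 and Tgtp1 at 15.5 ± 6.13 CPM per kb. Without regard to length the order over all 6 tumors changed, with Iigp1 and Irgm1 ahead of Igtp, because their exons are longer.

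**Figure D4:**
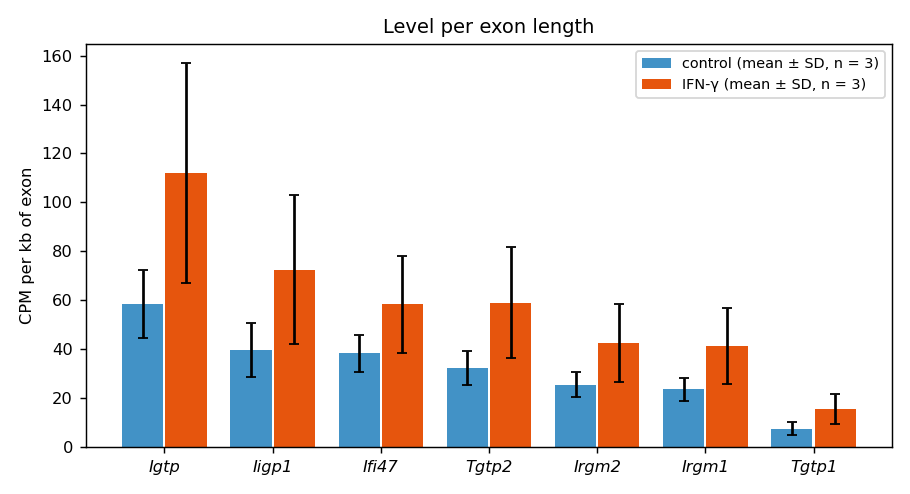
Bars give the mean level of each member in CPM per kb of exon for the control group (blue) and the IFN-γ group (orange), with SD bars over 3 tumors each, ordered by the mean over all 6 tumors. Igtp is highest and Tgtp1 lowest in both groups, and the bars of the IFN-γ group are wider.

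The proportions between members kept within narrow ranges over the 6 tumors, but not all shares were alike in the 2 groups. Iigp1 made up 26.8% to 30.8% of the family's summed CPM in the 6 tumors, Irgm1 16.6% to 18.3%, Igtp 14.7% to 16.2%, and Tgtp2 11.1% to 12.8%. Irgm2 made up 10.7% to 12.4%, Ifi47 9.24% to 12.4%, and Tgtp1 2.54% to 3.54%. Tgtp1 had a higher share in every IFN-γ tumor (3.49% to 3.54%) than in any control (2.54% to 3.22%). So did Igtp (15.6% to 16.2% against 14.7% to 15.1%). Irgm2 had a lower share in every IFN-γ tumor (10.7% to 11.4% against 11.7% to 12.4%). The shares of the other members overlapped between the groups, and no difference in share was tested. Pearson correlations of log2 CPM between the 21 pairs of members over the 6 tumors ran from 0.977 to 0.998, highest for Irgm1 with Igtp. The ratio of Irgm1 to Tgtp2 varied least from tumor to tumor, with an SD of 0.0537 on the log2 scale, and that of Tgtp1 to Ifi47 varied most, with 0.298. All these points come from the same 6 libraries and are given as a description.

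Other genes of the family were listed by hand, and 8 of the 9 present in the table were tested. Irgc1, a relative known from testis, had 0 counts in every tumor, which allows at most 0.188 CPM in control 1. All 8 had a log2 fold change above 0 with all 6 tumors, with a median of 0.367, but 0 passed the test. An unadjusted p below 0.05 in edgeR was reached by 2, against 10.2% of genes tested. Without IFN-γ tumor 3, 2 of 8 passed as higher, Gm12250 and Gm4951, against 2.46% of genes tested. Gm12250, known as Irgb10, an effector that acts on bacterial membranes, stood at 21.4, 42.5 and 32.8 CPM in control tumors against 76.5, 75.3 and 27.6 CPM in the IFN-γ tumors. Its log2 fold change was 0.89 (edgeR adjusted p = 0.476), and 1.22 (edgeR adjusted p = 0.0255) without IFN-γ tumor 3. GENCODE M21 lists it as a processed pseudogene. Gm4951, whose coding sequence was 88.0% identical to that of Iigp1, stood at 31.8, 50.3 and 40.7 CPM in control tumors against 85.3, 77.6 and 37.2 CPM in the IFN-γ tumors. Both genes had the members' pattern of 2 high IFN-γ tumors and 1 within the control range. The smallest log2 fold changes were those of 9930111J21Rik1 and 9930111J21Rik2, at 0.17 and 0.15, and the sign of the first turned without control 3 or without IFN-γ tumor 1 and that of the second without IFN-γ tumor 1.

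The 11 guanylate-binding proteins, which attack the same vacuoles, were tested in full. With all 6 tumors 0 of 11 passed and 4 had an unadjusted p below 0.05 in edgeR, against 10.2% of genes tested. Without IFN-γ tumor 3, 7 of 11 passed as higher, against 2.46% of genes tested. The median log2 fold changes were 0.792 with all 6 tumors and 1.09 without that tumor. The largest value with all 6 was that of Gbp2b, at 187, 361 and 281 CPM in control tumors against 709, 723 and 324 CPM in the IFN-γ tumors (log2 fold change 1.08, edgeR adjusted p = 0.343, and 1.36 with 0.0192 without IFN-γ tumor 3). The smallest was that of Gbp7, 0.51 (edgeR adjusted p = 0.681, and 0.83 with 0.0687 without IFN-γ tumor 3). For all 11 genes IFN-γ tumors 1 and 2 were the highest of the 6, a pattern seen in 13.4% of all genes tested.

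Of 9 genes of IFN-γ signalling, which lies upstream of the IRGs, 0 passed with all 6 tumors. An unadjusted p below 0.05 in edgeR was reached by 4, against 10.2% of genes tested. Irf1, an interferon-induced activator of IRG promoters, stood at 140, 211 and 162 CPM in control tumors against 308, 290 and 177 CPM in the IFN-γ tumors and passed as higher without IFN-γ tumor 3 (log2 fold change 0.80, edgeR adjusted p = 0.0303). Irf1 was highest in IFN-γ tumors 1 and 2, as the members were, a pattern seen in 13.4% of all genes tested. The part of Irf1 in the members' levels was not tested.

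Ifng itself, the cytokine made by T and NK cells, was low, at 0.438, 0.733 and 1.31 CPM in control tumors against 1.57, 2.5 and 0.309 CPM in the IFN-γ tumors, from 5 to 41 counts a tumor. It had the largest log2 fold change of the list, 0.81 (edgeR adjusted p = 0.747, and 1.27 with 0.227 without IFN-γ tumor 3), and was lowest in IFN-γ tumor 3. Socs1, the feedback inhibitor of JAK kinases, did not follow the members' pattern. It stood at 17.8, 17.1 and 17.3 CPM in control tumors against 25.3, 23.5 and 27.1 CPM in the IFN-γ tumors, so that the groups did not overlap and IFN-γ tumor 3 was the highest. Its log2 fold change was 0.54 ± 0.101 (SE; edgeR adjusted p = 0.141, and 0.0535 without IFN-γ tumor 3). The lowest value of the list was that of the phosphatase Ptpn2, -0.09, and -0.12 without that tumor.

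Of 5 genes of type I interferon signalling, 0 passed with all tumors (0 at an unadjusted p below 0.05 in edgeR, against 10.2% of genes tested). Without IFN-γ tumor 3, 1 passed as higher, Stat2 (log2 fold change 0.67, edgeR adjusted p = 0.0457), against 2.46% of genes tested. Stat2 was also the highest of the list with all tumors, at 0.45, and the kinase Tyk2 the lowest, at -0.13 (-0.039 without IFN-γ tumor 3). Of the 11 genes of ATG8 conjugation, which steers IRGs to vacuoles, 0 passed in either fit, with median log2 fold changes of 0.00616 and -0.054. With all 6 tumors 1 had an unadjusted p below 0.05 in edgeR, against 10.2% of genes tested. Map1lc3a was highest at 0.41 and Atg7 lowest at -0.10, against 0.40 and -0.091 without IFN-γ tumor 3. Of 3 ubiquitin-related genes whose proteins follow IRGs to the vacuole, 0 passed in either fit. They ran from Trim21 at 0.23 to Sqstm1 at -0.07 with all tumors and from 0.35 to -0.19 without IFN-γ tumor 3.

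**Figure D5:**
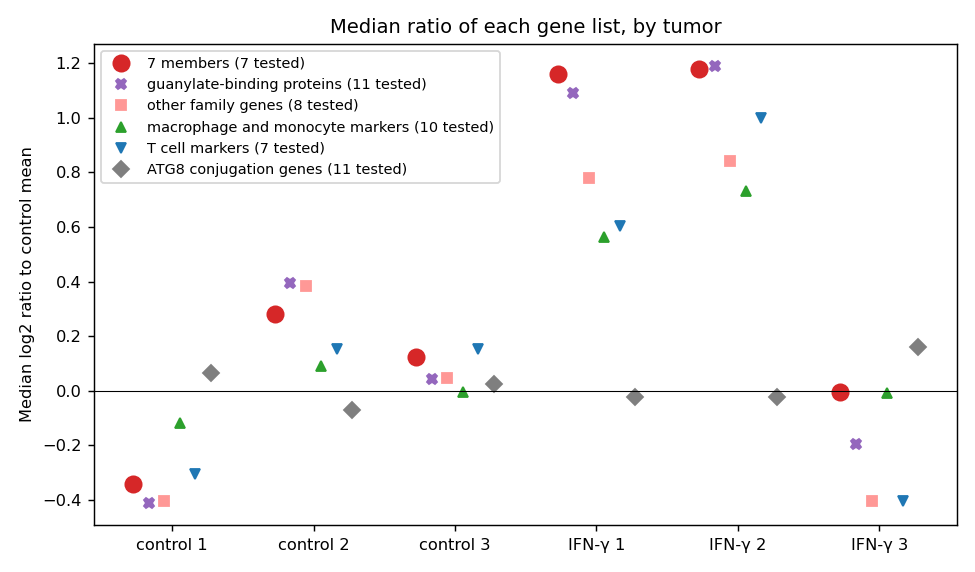
Each point is the median, over the genes of 1 list that were tested, of the log2 ratio of a tumor to the control mean (vertical axis, CPM with 0.5 added), for the 6 tumors along the horizontal axis. The members (1.16, 1.18 and -0.00508 in IFN-γ tumors 1, 2 and 3) lie near the guanylate-binding proteins, while the ATG8 conjugation genes stay between -0.0685 and 0.16.

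The genes most like the members were those whose log2 CPM correlated best, over the 6 tumors, with the members' mean after each member was scaled. They were Samhd1 (r = 0.9966), a dNTP hydrolase that restricts viruses, then Akr1b10 (0.9961), Hcls1 (0.9957), an adaptor of blood cells, Ciita (0.9953), the activator of MHC class II genes, and Idnk (0.9952). Samhd1 stood at 224, 307 and 289 CPM in control tumors against 454, 452 and 258 CPM in the IFN-γ tumors. Ciita stood at 17.5, 40.4 and 29.7 CPM in control tumors against 78.8, 84.5 and 27.0 CPM in the IFN-γ tumors. In both, IFN-γ tumors 1 and 2 were highest and IFN-γ tumor 3 lay within the control range. High correlations were common with 6 tumors, as 603 of the genes tested (3.99%) exceeded 0.9 and 36 (0.238%) exceeded 0.99. Both counts include members, which are part of the mean they were correlated with.

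The summed levels of 4 immune marker lists were highest in the same tumors as the members, although with all 6 tumors 0 of their markers passed the test. Single markers did not all follow the sums. IFN-γ tumors 1 and 2 were both above the other 4 for 8 of 10 macrophage and monocyte markers and 6 of 7 T cell markers. The same held for 3 of 5 NK cell and 3 of 6 dendritic cell markers, against 13.4% of all genes tested. Summed over 10 macrophage and monocyte markers, CPM was 2190 to 2420 in control tumors against 3260, 3560 and 2330 in the IFN-γ tumors. Of these 10 markers 0 passed with all tumors, and 7 had an unadjusted p below 0.05 in edgeR, against 10.2% of genes tested. Without IFN-γ tumor 3, 7 passed as higher, against 2.46% of genes tested. The median log2 fold change was 0.498 with all tumors and 0.644 without that tumor. Mrc1, among the 7 at an unadjusted p below 0.05 in edgeR, was lower with IFN-γ, at -0.22 with all tumors. Summed over 7 T cell markers, CPM was 43.9 to 67.6 in control tumors against 92.5, 107 and 36.9 in the IFN-γ tumors, and 0 of 7 passed in either fit. Summed over 5 NK cell markers, CPM was 28.9 to 44.9 in control tumors against 67.9, 74.3 and 21.2 in the IFN-γ tumors, and 1 of 5, Klrk1, passed without IFN-γ tumor 3. Klrk1 made up most of the sum in IFN-γ tumors 1 and 2, at 44.1 and 42.6 CPM. Klrb1c was highest in control 3, at 2.57 CPM. Summed over 6 dendritic cell markers, CPM was 29.7 to 46.7 in control tumors against 59.4, 61.6 and 35.2 in the IFN-γ tumors, and 0 of 6 passed in either fit. Zbtb46 was highest in control 2, at 9.64 CPM, and Siglech in control 3, at 5.26 CPM. No marker of these 4 lists was at 0 in any tumor. The part of these cells in the members' levels was not tested.

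For the remaining cell types, 0 markers passed with all 6 tumors. Neutrophil markers summed to 27.7 to 36.3 CPM with PBS and to 43.9, 46.7 and 36.4 CPM in the 3 IFN-γ tumors. Without IFN-γ tumor 3, 1 of 4 tested, Csf3r, passed as higher, against 2.46% of genes tested. Csf3r made up most of that sum, with 38.8 and 38.7 CPM in IFN-γ tumors 1 and 2, while S100a8 and S100a9 were highest in control 1, at 3.94 and 9.13 CPM. Endothelial markers summed to 229 to 288 CPM with PBS and to 185 to 245 CPM with IFN-γ, and B cell markers, unlike the other immune lists highest in a control tumor, to 8.0 to 12.5 CPM and to 6.56 to 8.0 CPM. Of 4 B cell markers tested, 1, Cd79b, had a log2 fold change above 0 with all tumors, at 0.38. Pax5 and Ms4a1 had -1.94 each and Cd79a -0.75, all at 3.16 CPM or less. Fibroblast markers were lowest in control 2 at 1380 CPM and IFN-γ tumor 3 at 1430 CPM, and reached 2680 CPM in control 3. Skeletal muscle markers were highest in control 3, at 813 CPM, and lay between 121 and 432 CPM in the others. Adipocyte markers summed to 5.98 to 11.4 CPM with PBS and to 25.5, 54.1 and 42.9 CPM with IFN-γ. Of these 5 markers 4 passed as higher without IFN-γ tumor 3, against 2.46% of genes tested. They were thus also high in IFN-γ tumor 3, where the members were not.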

How the data were processed

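RNA-seq had been done on 6 subcutaneous CT26.WT tumors, 3 per group as labelled. A figure legend of the study counts fewer in the IFN-γ group, and for its panel on genes also fewer controls, without naming them. The authors deposited 1 table of raw counts, in whole numbers, with a row for each gene and a column for each tumor. The submitters' processing notes name HISAT2 and mm10, and the counting program and the use of strand are not given in the sources used here, so genes that overlap or share sequence are uncertain. Counts were tested with edgeR 4.0.16 (R 4.3.3), with TMM factors, filterByExpr and a quasi-likelihood fit, and p-values were adjusted by Benjamini-Hochberg over every gene tested (threshold 0.05). SE was obtained as the absolute log2 fold change over the root of F. DESeq2 1.42.0, limma-voom (limma 3.58.1), other scalings and filters, a replicate block, Tgtp1 and Tgtp2 summed, and each tumor left out in turn were the alternatives. Only the main edgeR fit was tried on simulated counts, which had the same dispersion for every gene and no outlying tumor. The alternatives were not tried on simulated counts. No libraries were duplicates, with correlations of 0.9804 to 0.9929 between them. Ratios by tumor and correlations used log2(CPM + 0.5). Gene positions and coding sequences came from GENCODE M21, which held 99.4% of the gene identifiers, and promoters from RefSeq.

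The named genes were the 7 members and other family genes. From lists of interferon signalling, guanylate-binding proteins, ATG8 conjugation and ubiquitin-related genes, those past the threshold and the highest and lowest were named. Gm12185 (for its promoter), Ifng, Socs1, Krt14, the epithelial markers, Mrc1, Csf3r, S100a8, S100a9 and Klrk1 were named with their values known. So were Klrb1c, Zbtb46, Siglech, Cd79a, Cd79b, Pax5 and Ms4a1. The 5 genes most like the members were named by correlation. The members and lists were chosen with earlier results of these data known. The values of 1 listed gene are not reported here.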

Additional observations from a re-analysis of the deposited data

How the results depend on the processing

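The direction of all 7 members held under every alternative run. Their calls changed without IFN-γ tumor 3 and, for 4 of them, with no filter on low counts. Members past the threshold numbered 0 with all tumors, 0 to 7 when 1 tumor was left out, and 4 with no filter on low counts (Irgm1, Igtp, Tgtp1 and Tgtp2, at edgeR adjusted p of 0.0414, 0.0248, 0.0246 and 0.0276). With no filter their log2 fold changes were 0.80, 0.93, 1.04 and 0.86. The fits added after seeing the data all left out IFN-γ tumor 3. There DESeq2 called 7, with log2 fold changes of 1.08 for Irgm1, 1.01 for Irgm2, 1.23 for Igtp, 1.18 for Iigp1, 1.34 for Tgtp1, 1.15 for Tgtp2 and 0.85 for Ifi47. Limma-voom called 7, with 1.09, 1.03, 1.25, 1.22, 1.38, 1.16 and 0.865 in the same order. EdgeR with Tgtp1 and Tgtp2 summed called 6 of 6 features, with 1.18 for the sum and 1.07, 1.01, 1.23, 1.17 and 0.85 for Irgm1, Irgm2, Igtp, Iigp1 and Ifi47. When 1 tumor was left out, the edgeR log2 fold change ran from 0.62 to 1.07 for Irgm1, 0.53 to 1.01 for Irgm2, 0.74 to 1.23 for Igtp, 0.66 to 1.17 for Iigp1, 0.80 to 1.33 for Tgtp1, 0.69 to 1.14 for Tgtp2 and 0.40 to 0.85 for Ifi47.

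Genes called higher over the whole table numbered 12, against 7 with library size only, 150 with no filter, 121 with DESeq2, 5 with the replicate block and 4 to 381 when 1 tumor was left out. Genes called lower numbered 5, against 70 with no filter, 67 with DESeq2, 3 with limma-voom, 2 with the replicate block and 2 to 112 when 1 tumor was left out. Without IFN-γ tumor 3, the added fits called 617 higher and 250 lower (DESeq2), 422 and 107 (limma-voom), and 380 and 112 (the pair summed). The cause of these differences was not tested.

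The labels do not say whether replicate numbers pair the tumors. Deviations from the group means correlated at -0.241, -0.00473 and -0.221 for numbers 1, 2 and 3. With 3 tumors a group, these values cannot decide it. With the replicate block the members' log2 fold changes ran from 0.57 to 1.01, with edgeR adjusted p of 0.604 to 0.669 and 0 past the threshold.

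Over 32 genes given singly and 576 comparisons, 499 kept direction and side of the threshold, 72 passed only under the alternative and 5 reversed. The reversed log2 fold changes were 9930111J21Rik1 at -0.010 without control 3 and -0.18 without IFN-γ tumor 1, 9930111J21Rik2 at -0.037 and F830016B08Rik at -0.094 without IFN-γ tumor 1, and Gm4841 at -0.014 without control 1. The highest values of these 4 genes with 1 tumor left out were 0.45, 0.37, 0.70 and 0.81. Each member had 241 counts or more in every tumor.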
